A study of Mus musculus with 6 samples.

Results

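The genes described here encode the proteins of elastic fibres and of the fibrillin microfibrils that carry them: Fbn1, Fbn2, Mfap2, Mfap4, Mfap5, Eln, Fbln5, Emilin1, Lox and Loxl1. These 10 genes were taken by symbol from the 21166 named genes on the array, and all 10 were found. Where a gene had several transcript clusters (the array's unit of measurement, a group of probes read as 1 transcript), the cluster was chosen by its mean log2 value over the 6 arrays, the highest standing for the gene. This choice arose for Fbn1 alone, whose 2 clusters had mean log2 values of 8.95 and 6.68. The arrays measured RNA from B/CMBA.Ov, a line of mouse ovary cells from the BALB/c strain. On 3 arrays the cells had received a synthetic mimic of the microRNA miR-15a-3p (the mimic group), and on 3 others a negative control mimic (the control group). Both groups had the same line, the same lipid transfection reagent, the same final dose of 20 nM and the same 48 h between transfection and RNA extraction. The comparison asks which transcripts differ between the groups, in a single line and without untransfected cells, and the sequence of the control mimic is not given in the labels.

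Elastic fibres have a core of cross-linked elastin laid down on a scaffold of microfibrils, which are beaded polymers of the fibrillins. Microfibril-associated proteins coat the fibrillins, fibulin-5 and emilin-1 bridge elastin and the microfibril, and enzymes of the lysyl oxidase family oxidise lysines so that elastin and collagen cross-link. Fibrillin microfibrils also hold latent TGF-beta and BMP growth factors in the matrix, and fibroblasts and smooth muscle cells are known as their main makers.

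The agent that separates the groups is shown first, as the mature miR-15a-3p of the RefSeq microRNA table (GRCm38.p6, chr14:61632038-61632059, minus strand), beside miR-15a-5p, the product of the other arm of the same precursor (chr14:61632075-61632096, minus strand). Capitals mark the seed, bases 2 to 8 counted from the 5′ end, by which a microRNA pairs with its target RNAs.
miR-15a-3p: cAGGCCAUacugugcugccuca
miR-15a-5p: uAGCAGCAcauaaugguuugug
The seeds of the arms differ. Of 1679 mature mouse microRNA names in that table, 1 carried the seed of miR-15a-3p, namely itself, while 10 carried that of miR-15a-5p, among them miR-15b-5p, miR-16-5p and miR-322-5p.

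With the miR-15a-3p mimic, transcripts of 2 elastic fibre proteins were clearly lower: Mfap5, which encodes the microfibril protein MAGP-2, at 36.5% of the control level, and Fbln5, which encodes fibulin-5, at 54.3%. Fbn1, which encodes fibrillin-1, was 1.32-fold higher. Lox, the gene of lysyl oxidase, was at 83.9% of the control level, on the edge of the threshold. The other 6 genes, including elastin itself, did not pass the test. By a limma fit of all 21166 genes, with Benjamini-Hochberg adjustment over all of them and a threshold of 0.05, 3 of the 10 genes fell and 1 rose. In the same fit 5.64% of all genes fell, 6.08% rose and 11.7% were called in either direction, or 19.2% of the brighter part of the genes, those whose mean reached the median (7.27), to which 7 of the 10 belonged. The median log2 fold change of the 10 genes was -0.10, against 0.01 for all genes. The genes were chosen with earlier results of these data known, so these counts describe the family and are no independent evidence that it stands apart.

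**Figure D1:**
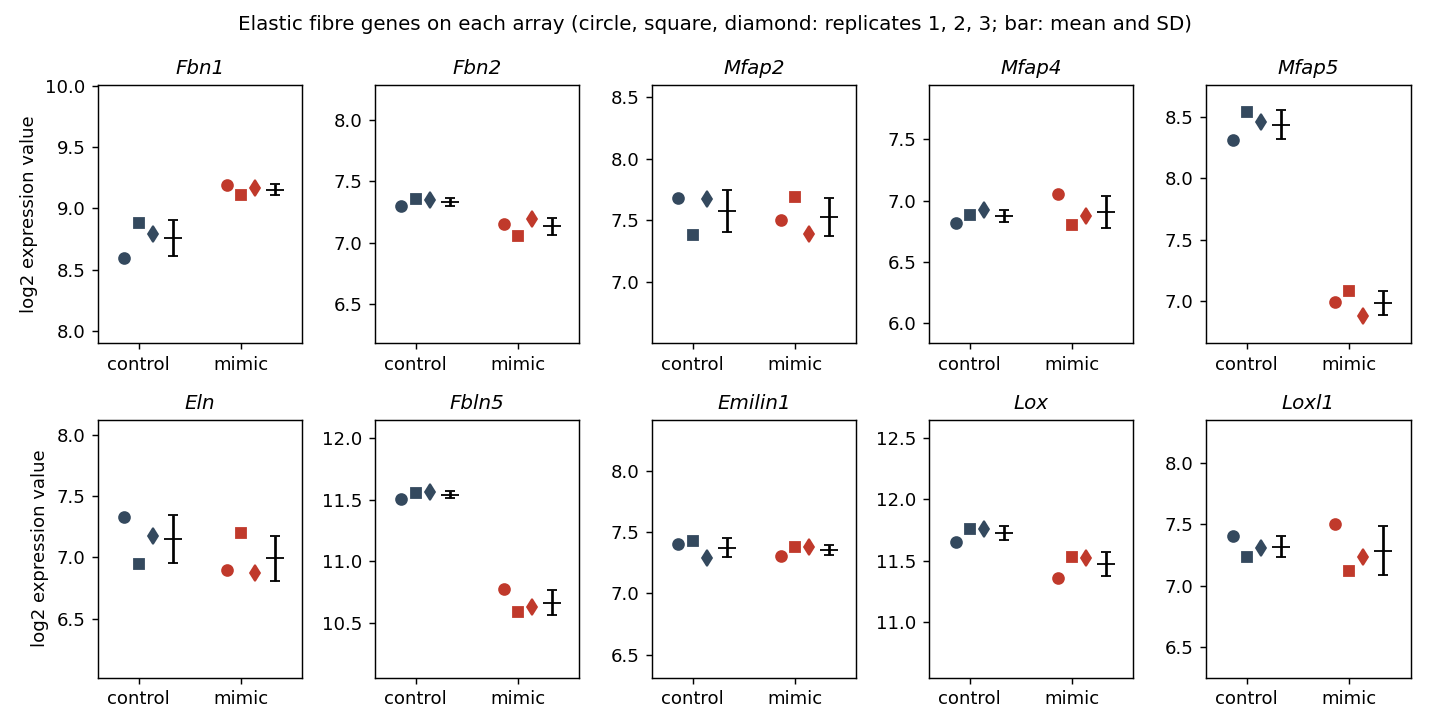
The log2 expression value of each of the 10 genes on each of the 6 arrays (circle, square and diamond for replicates 1, 2 and 3), with the mean and SD of each group of 3 as a bar beside the points. Every panel spans the same log2 range around the gene's mean. The groups lie apart in the panels of Mfap5, Fbln5, Fbn1, Fbn2 and Lox and overlap in the other 5.

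The 3 values of one group lay wholly above the 3 of the other in 5 of the 10 genes, 4 of them lower and 1 higher with the mimic. Of all genes, 29.6% were separated in this way, 13.2% lower and 16.4% higher. Within groups the arrays differed little: over all genes, the correlation r was 0.9963 to 0.9982 between arrays of one group and 0.9925 to 0.9944 between arrays of different groups. Whether replicates came from separate cultures is not stated, so the p-values reflect only how these arrays scatter, possibly technical scatter, and precision is limited by their small number.

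**Figure D2:**
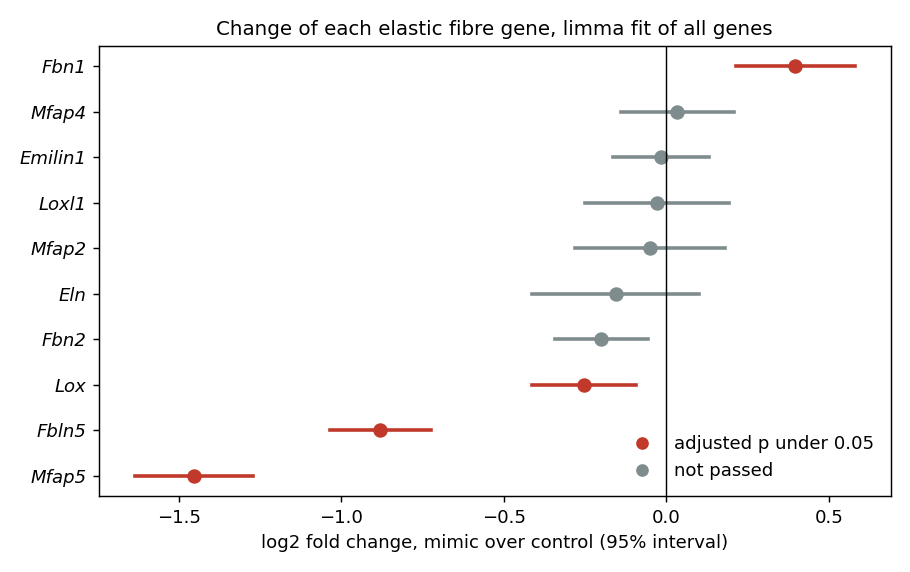
The log2 fold change of each gene, mimic over control, with its 95% interval from the limma fit of all genes. Red marks an adjusted p under 0.05. The intervals of Mfap5 (-1.63 to -1.27) and Fbln5 (-1.04 to -0.72) lie far below 0 and that of Fbn1 (0.21 to 0.58) above it, while those of Mfap4, Emilin1, Loxl1, Mfap2 and Eln span 0.

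The fibrillins form the backbone of the microfibril. Fbn1 (transcript cluster 10487040) had log2 values of 9.19, 9.11 and 9.16 on the mimic arrays and 8.59, 8.88 and 8.79 on the control arrays. All 3 mimic values lay above the control values, with a gap of 0.22 between the groups, and the control arrays varied more (SD 0.147) than the mimic arrays (SD 0.0443). Its log2 fold change was 0.40 ± 0.08 (SE; limma adjusted p = 0.012). The second cluster of Fbn1 (10475623), a dimmer one read by 1 probe set where the first had 68, had a log2 fold change of -0.05 (limma adjusted p = 0.70 in a fit of all clusters). When the clusters were averaged the log2 fold change was 0.17 and the call was lost (limma adjusted p = 0.11).

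Fbn2 encodes fibrillin-2, the fibrillin best known from developing tissue. Its log2 values were 7.15, 7.06 and 7.20 with the mimic and 7.30, 7.36 and 7.35 with the control. The groups did not overlap, but the gap of 0.10 was smaller than the range of the mimic arrays, 0.14. Fbn2's log2 fold change of -0.20 ± 0.06 (SE) did not pass (limma adjusted p = 0.0775), with an interval from -0.34 to -0.06.

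Of the 3 microfibril-associated genes, Mfap5 alone passed the test. Its log2 values (cluster 10541496) were 6.995, 7.080 and 6.881 with the mimic and 8.313, 8.543 and 8.457 with the control. The groups were 1.23 apart, while the arrays ranged over 0.199 within the mimic group and 0.230 within the control group. Mfap5 thus had a log2 fold change of -1.45, with an SE of 0.08 (limma adjusted p = 1.6e-05), which ranked 7th among all falls. The mimic values were close to the medians of the arrays, which lay between 6.94 and 7.01, and since no detection call came with the values it cannot be said how far they are above background.

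Mfap2 encodes MAGP-1, the close relative of MAGP-2 on fibrillin microfibrils. The log2 values of Mfap2 were 7.50, 7.69 and 7.39 with the mimic and 7.68, 7.38 and 7.67 with the control. The groups overlapped fully, and the interval of the log2 fold change ran from -0.28 to 0.18, around -0.05 (limma adjusted p = 0.83). Mfap4, whose product carries a fibrinogen-related domain and binds elastic fibre proteins, had log2 values of 7.05, 6.80 and 6.87 with the mimic and 6.82, 6.88 and 6.92 with the control. Its groups overlapped too, with a log2 fold change of 0.03 and an interval from -0.14 to 0.21 (limma adjusted p = 0.86). Of the 8 probe sets in the ID range of the Mfap4 cluster, 6 carried the symbol Mfap4 and 1 that of Mapk7.

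Fbln5 was among the brighter genes of the family, and its groups lay far apart. Fibulin-5 binds tropoelastin and LOXL1 and is needed for normal elastic fibres in the mouse. The log2 values of its cluster (10402211) were 10.78, 10.59 and 10.62 with the mimic and 11.51, 11.55 and 11.56 with the control. The control arrays lay within 0.054 of each other and the mimic arrays within 0.192, while the groups were 0.73 apart. On the log2 scale the change of Fbln5 was -0.88 ± 0.07 (SE; limma adjusted p = 0.00011), the 47th largest fall of all genes.

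Eln encodes tropoelastin, the soluble precursor of the elastic core. The log2 values of Eln were 6.90, 7.20 and 6.88 with the mimic and 7.33, 6.94 and 7.18 with the control. The groups overlapped, since the second mimic array was high and the second control array low, the same arrays that were highest and lowest for Mfap2. Its log2 fold change of -0.16 did not pass (limma adjusted p = 0.47), and its interval, from -0.41 to 0.10, was the widest of the 10. Without single arrays the value ranged from -0.26, without mimic replicate 2, to -0.066, without control replicate 1. Emilin1 encodes the glycoprotein at the interface of elastin and microfibril. Its log2 values were 7.31, 7.38 and 7.38 with the mimic and 7.40, 7.43 and 7.29 with the control. The groups of Emilin1 overlapped, and the interval of its log2 fold change ran from -0.17 to 0.13, around -0.02 (limma adjusted p = 0.92).

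Lox encodes lysyl oxidase, a copper-dependent enzyme that cross-links collagen and elastin. The log2 values of Lox (cluster 10458894) were 11.36, 11.53 and 11.52 with the mimic and 11.66, 11.76 and 11.76 with the control. The first array was the lowest of the 3 in both groups, and the groups were 0.12 apart. The log2 fold change was -0.25 ± 0.07 (SE; limma adjusted p = 0.049). That call was lost in each of the 6 fits without 1 array (limma adjusted p from 0.053, without control replicate 1, to 0.19, without control replicate 3), with median centring (0.058) and with the replicate number as a block (0.071). Loxl1, whose product acts mainly on elastin, had log2 values of 7.51, 7.12 and 7.23 with the mimic and 7.41, 7.24 and 7.30 with the control. The groups of Loxl1 overlapped, the first mimic array being the highest of the 6 and the second the lowest, and the interval of the log2 fold change was -0.25 to 0.19 (limma adjusted p = 0.90).

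**Figure D3:**
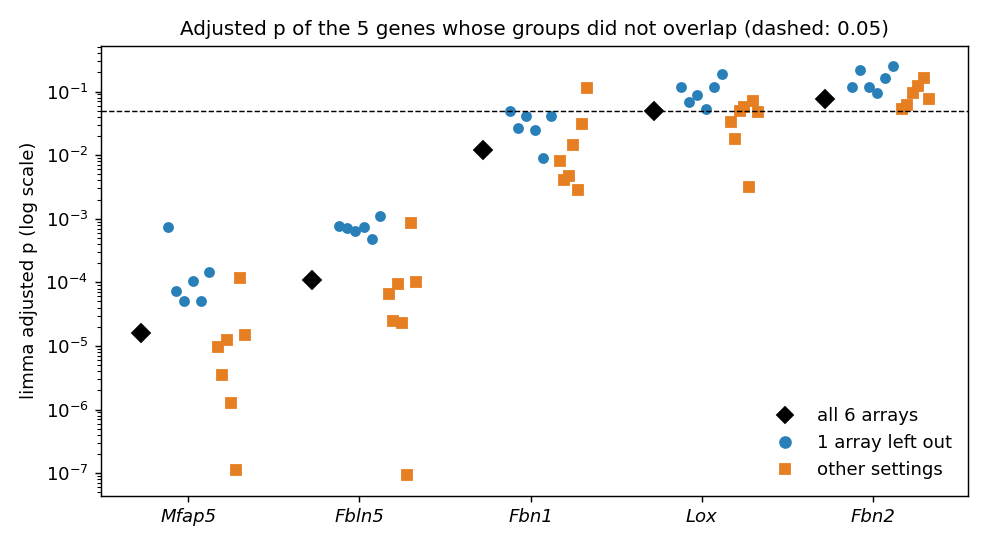
The limma adjusted p (log axis) of the 5 genes whose groups did not overlap, with all 6 arrays (diamond), with 1 array left out (circles) and under the other settings (squares). Mfap5 and Fbln5 stayed below the dashed line at 0.05 in all of them. Fbn1 crossed it once, at 0.11 in the mean of its clusters, Lox lay on both sides of it (0.0032 to 0.19) and above it in 8 of 13 alternatives, and Fbn2 lay above it throughout.

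Related genes of the family were compared as 3 pairs, each by the difference of their changes. With 3 arrays against 3 no exact permutation p can be below 0.10, so none of the pairs could pass the threshold. Mfap2 minus Mfap5 on the log2 scale came to 0.54 ± 0.0591 on the mimic arrays and to -0.86 ± 0.274 on the control arrays (SD, n = 3 each). The changes of these genes thus differed by 1.40, and the exact two-sided permutation test gave p = 0.10, the smallest possible (0.15 adjusted over the pairs). The changes of Fbn1 and Fbn2 differed by 0.60, again with an exact permutation p of 0.10 (adjusted 0.15). Those of Loxl1 and Lox differed by 0.22, with an exact permutation p of 0.30 (adjusted 0.30).

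The exon-level probe sets show how many of a gene's separate measurements moved the same way. All ratios, p-values and counts in this and the next paragraph are from the authors' deposited table, which compares mimic with control for each of 241419 probe sets with an unadjusted p and is a second reading of the same comparison. At p under 0.05, 6.44% of all its probe sets were lower and 5.51% higher. For Mfap5, the authors' deposited table gave lower values on 10 of 10 probe sets, 9 of them with p under 0.05. Their ratios ran from 0.0965 to 0.895 with a median of 0.295, and the one nearest to 1 was the first in order of ID. The authors' deposited list of probe sets with p under 0.05 that were at least 2-fold lower, which holds 0.732% of all probe sets, had 8 of these 10. For Fbln5, the authors' deposited table had 13 of 13 probe sets lower, 12 with p under 0.05, and the ratios were more even, from 0.390 to 0.621 with a median of 0.517. The authors' deposited list held 5 of them.

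In the authors' deposited table Fbn1 was higher on 58 of its 68 probe sets, 16 of which had p under 0.05, and none of the 10 lower ones did. The median ratio was 1.36. Lox was lower on 10 of 11 probe sets in the authors' deposited table, 4 with p under 0.05, with a median ratio of 0.861. Fbn2 was mixed: the authors' deposited table had it lower on 42 of 66 probe sets, 7 with p under 0.05, and higher on 24, 2 with p under 0.05, around a median ratio of 0.805. Eln split evenly, with 20 lower and 19 higher probe sets around a median ratio of 0.995 in the authors' deposited table, and ratios that ranged from 0.383 to 3.62. Only the lowest and the highest of these Eln probe sets had p under 0.05 in the authors' deposited table. The authors' deposited list of probe sets at least 2-fold lower held 3 of Fbn2 and 1 of Eln. No probe set of Mfap2 (8), Mfap4 (6), Emilin1 (7) or Loxl1 (13) had p under 0.05 in the authors' deposited table, and their median ratios lay between 0.969 and 1.03.

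**Figure D4:**
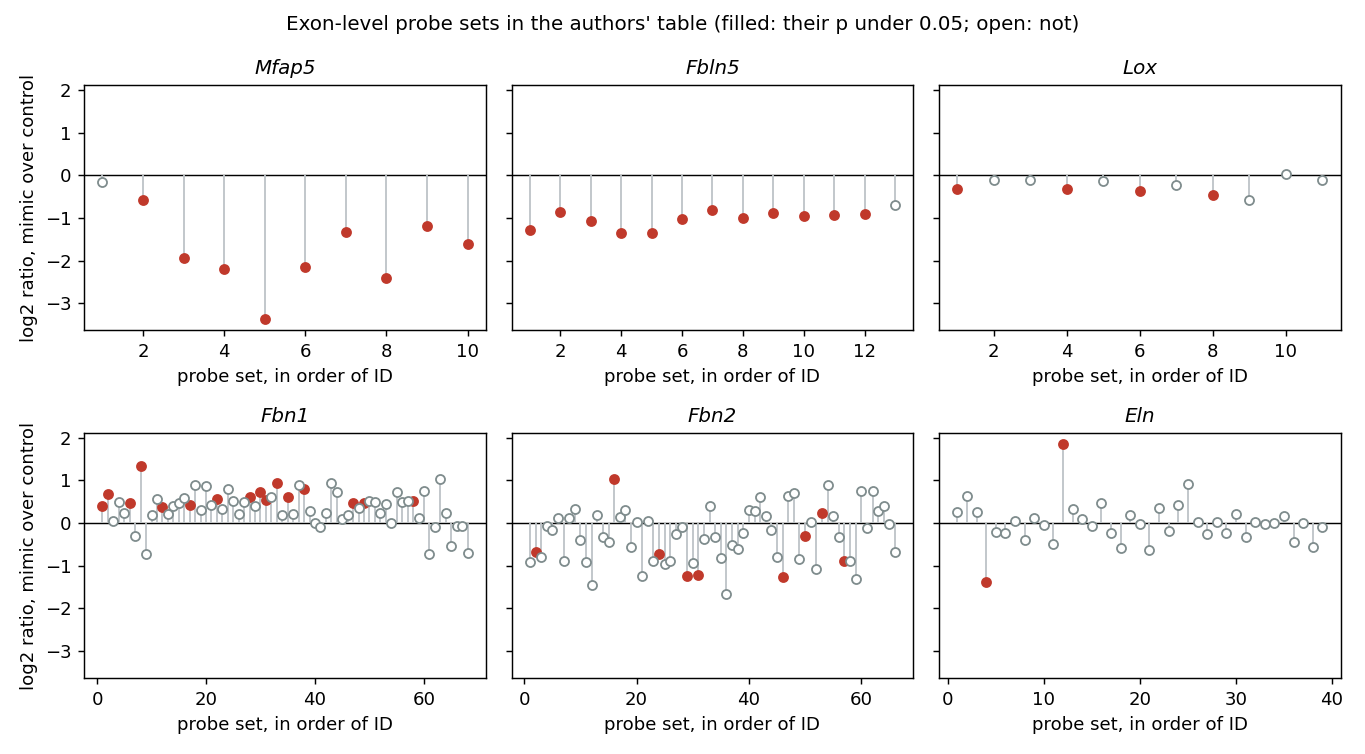
The log2 ratio, mimic over control, of each exon-level probe set of 6 genes in the authors' deposited table, in order of probe set ID, filled where their p was under 0.05. Mfap5 and Fbln5 are below 0 on every probe set, 58 of 68 probe sets of Fbn1 are above it, and those of Eln scatter on both sides.

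Promoters are shown for Fbn1 and Fbln5, the called genes among the 4 of the 10 genes whose windows were read from the RefSeq promoter table. No window was found under the symbols of Mfap5, Mfap4, Eln and Loxl1. Windows of Fbn2 and Lox were not read here, which does not mean that the table lacks them. Each window has 250 bases before and 50 after an annotated start (GRCm38.p6, both on the minus strand): chr2:125506389-125506688 for Fbn1 and chr12:101819070-101819369, the upstream one of 2 starts, for Fbln5. Capitals mark matches, on either strand, to any of 6 motifs: the TATA box, with the letters TATAAA, the CCAAT box, the GC box, spelled GGGCGG, the AP-1 motif, spelled TGANTCA, the E-box, here CACGTG, and the TEAD motif, read as GGAATG.
Fbn1: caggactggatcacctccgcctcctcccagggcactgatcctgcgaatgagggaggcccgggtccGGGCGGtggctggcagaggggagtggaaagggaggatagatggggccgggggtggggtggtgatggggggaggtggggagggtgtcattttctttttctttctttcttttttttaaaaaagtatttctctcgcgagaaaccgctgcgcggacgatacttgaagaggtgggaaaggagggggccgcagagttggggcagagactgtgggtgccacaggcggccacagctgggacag
Fbln5: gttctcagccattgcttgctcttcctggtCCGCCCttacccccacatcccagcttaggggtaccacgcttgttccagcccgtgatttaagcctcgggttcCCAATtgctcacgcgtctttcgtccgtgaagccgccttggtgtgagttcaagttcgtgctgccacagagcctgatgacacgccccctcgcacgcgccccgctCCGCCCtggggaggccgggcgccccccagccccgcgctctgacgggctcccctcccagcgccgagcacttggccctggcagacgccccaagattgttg
The Fbn1 window held 1 GC box, and the Fbln5 window held 2 GC boxes and 1 CCAAT box, none of which overlap. Of all 32851 promoter windows in the table, 35.7% held a GC box and 37.4% a CCAAT box. Neither window held the letters of the TATA box, AP-1, E-box or TEAD motif, found in 13.6%, 7.81%, 7.15% and 14.7% of all windows, and the downstream Fbln5 window held none of the 6 motifs. Both printed windows were richer in G and C (60.3% and 65.7%) than the median window (52.7%).

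Other genes of elastic fibre assembly and turnover, listed by function, changed in both directions. Of 62 measured genes on 5 lists, 6 rose and 5 fell, and the median log2 fold change was -0.0048. Of these genes 46 belonged to the brighter part, of which 19.2% were called, against 11.7% of all genes. Without control replicate 3 the counts were 5 and 1. Among 13 fibulins, latent TGF-beta binding proteins and emilin relatives, Ltbp1 and Fbln2 rose and Efemp2 fell. Ltbp1, which ties latent TGF-beta to fibrillin microfibrils, went from 10.32 to 10.75 on the log2 scale (limma adjusted p = 0.0022). Fbln2, the gene of fibulin-2, had a log2 fold change of 0.37 (limma adjusted p = 0.0060), against the fall of its relative Fbln5. Efemp2, the gene of fibulin-4, had -0.26 (limma adjusted p = 0.048), a call lost in 5 of the 6 fits without 1 array, all but that without mimic replicate 1 (up to 0.17), and with the replicate block (0.10).

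Of 12 measured genes of cross-linking and copper supply, Fkbp10 and Atp7a rose and Slc31a1 fell. Of the 12, 10 belonged to the brighter part, where 19.2% of genes were called in either direction. The lysyl oxidase relatives Loxl2 and Loxl4 did not pass (limma adjusted p = 0.41 and 0.81). Loxl4 was read by 1 probe set and Loxl2 by 14. Loxl3, the 13th gene of that list, is not analysed here because its cluster carried several symbols. Fkbp10, a prolyl isomerase of the endoplasmic reticulum needed for collagen cross-linking, went from 9.70 ± 0.0341 to 10.24 ± 0.0988 on the log2 scale (SD, n = 3; limma adjusted p = 0.0011). Atp7a, the pump that brings copper into the secretory pathway, had a log2 fold change of 0.40 (limma adjusted p = 0.015), a call lost without mimic replicate 1 or mimic replicate 3 (up to 0.054). Slc31a1, a copper importer of the cell surface, had -0.29 (limma adjusted p = 0.013), a call lost without control replicate 3 (0.058). Of 7 ADAMTS and ADAMTS-like genes, Adamtsl2, whose product binds fibrillin-1 and LTBP-1, rose by a log2 of 0.42 (limma adjusted p = 0.014), which did not pass without mimic replicate 1 or control replicate 3 (up to 0.065).

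Among 16 receptors, ligands and binding partners, 1 rose and 3 fell. Of the 16, 15 belonged to the brighter part, where 19.2% of genes were called in either direction. Vcan encodes versican, a large proteoglycan that binds fibrillin, and went from 10.28 ± 0.0570 to 9.47 ± 0.0931 on the log2 scale (SD, n = 3), a log2 fold change of -0.80 (limma adjusted p = 0.00019). Tgfb1 rose, with a log2 fold change of 0.52 (limma adjusted p = 0.0078), and Tgfb3 fell, with -0.28 (limma adjusted p = 0.016). The fall of Tgfb3 lost its call when mimic replicate 2 or 3 or control replicate 3 was left out (up to 0.088) and with the replicate block (0.056). Dcn, the gene of decorin, had -0.30 (limma adjusted p = 0.011; 0.057 without control replicate 3). None of the integrin genes on the list was called, and of 14 elastases and protease inhibitors 0 rose and 0 fell by limma, with log2 fold changes from -0.13 to 0.24.

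**Figure D5:**
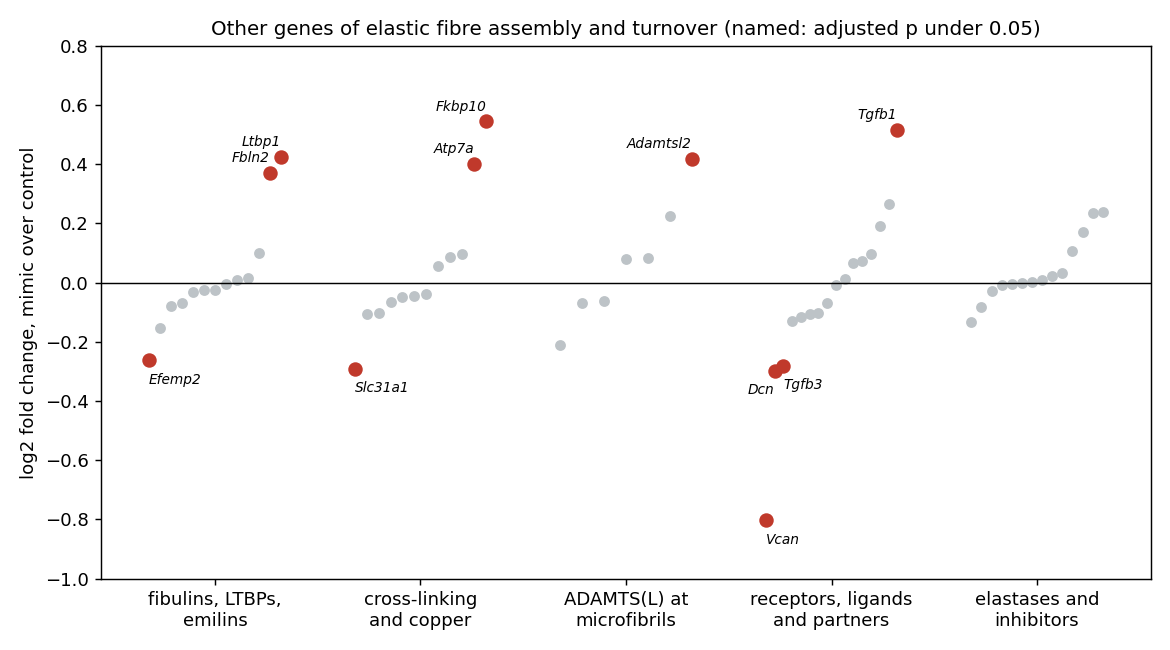
The log2 fold change, mimic over control, of 62 further genes on 5 lists, with the names of those with a limma adjusted p under 0.05 (red). The 11 called genes lie on both sides of 0, from Vcan at -0.80 to Fkbp10 at 0.54, and the list of elastases and their inhibitors has none.

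The genes with the profile most like that of Mfap5 over the 6 arrays, by the smallest root mean square difference of mean-centred log2 values, were Edn1 (difference 0.0610), the protease gene Mmp3 (0.0712), Fgl1 (0.105), the hyaluronan synthase gene Has2 (0.109) and Rtn1 (0.113). Their log2 fold changes lay between -1.56 and -1.35. For Fbn1 they were Tcte3 (0.0178), Crebrf (0.0217), Ndufaf4 (0.0219), Atp7a (0.0221), named above for copper supply, and Ubl3 (0.0235), with log2 fold changes from 0.38 to 0.40. With 2 groups of 3 arrays such likeness mostly reflects a change of the same size.

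Markers of the cell types that could hold these transcripts were set beside the results. Their counts stand beside 11.7% of all genes called in either direction, or 19.2% of the brighter part, and no list was tested as a set. Of 7 fibroblast markers 1 rose (Pdgfra, log2 fold change 0.34) and 0 fell, and the list's mean log2 level was 9.85 to 9.94 on the mimic arrays and 9.90 to 9.95 on the control arrays. Pdgfra was called in only 1 of the 6 fits without 1 array, that without control replicate 2, and not with the replicate block (limma adjusted p = 0.059). Of 6 smooth muscle markers 2 fell, Cnn1 (-0.74) and Tagln (-0.33, a call lost when mimic replicate 2 or 3 or control replicate 3 was left out). The other 4 were not called. Myh11 was higher, with its groups apart (0.23, limma adjusted p = 0.053), and so was Des (0.090), while Acta2 (-0.10) and Smtn (-0.11) were lower. The smooth muscle list's mean level was 9.35 to 9.47 on the mimic arrays and 9.52 to 9.58 on the control arrays. Of 9 markers of mesothelium and ovarian surface epithelium 3 rose and 4 fell, among them Upk3b (-1.40), Krt8 (0.69), Lrrn4 (-0.83) and Krt7 (-0.75). One of the rises, that of Krt18 (0.26, limma adjusted p = 0.049), was lost in each of the 6 fits without 1 array and with the replicate block. The mean level of that list was 9.58 to 9.70 on the mimic arrays and 9.79 to 9.80 on the control arrays. Its median log2 fold change was nevertheless 0.044, between extremes of -1.40 and 0.69. The part of these markers in the changes of Mfap5, Fbln5 and Fbn1 was not tested, and in a bulk sample fewer cells of a type and less RNA per cell cannot be told apart. As for the labelled ovarian origin, the mean reached that of the median gene for 9 of 9 markers of mesothelium and ovarian surface epithelium, 2 of 7 of granulosa cells, 0 of 5 of oocytes and 0 of 5 of theca. It also did so for 6 of 7 fibroblast markers and 5 of 6 smooth muscle markers. Levels of different probes are not strictly comparable and no detection call was given, so these counts do not show which markers were absent. Of the 7 granulosa markers 2 fell, Inhbb (-0.63) and Fst (-0.50), and 5 were not called, with log2 fold changes up to 0.13. Of the 5 oocyte markers 1 fell, Ddx4 (-0.40), and 4 were not called, with values up to 0.057. Of 5 endothelial markers 1 fell, Tek (-0.52), and 4 were not called, with values up to 0.22. The mean reached that of the median gene for 0 of these 5 endothelial markers. By limma 0 of 5 leukocyte markers were called in either direction. Ddx4 was dim, with a mean log2 value of 4.51 on the mimic arrays and 4.91 on the control arrays.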

How the data were processed

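RNA of 6 samples was hybridised to mouse gene arrays, 3 per group, with groups and replicate numbers from the sample titles. The authors deposited log2 values of 35556 transcript clusters, from 2.73 to 13.91. Tools named in the submitters' processing notes, with no version, role or order, are Partek, MAS5, RMA and Affymetrix Expression Console. No detection call, probe-level signal or annotation build is given in the sources used here. The authors' deposited exon-level table gives unadjusted p-values, a linear ratio, and scores (signed fold, F, sums of squares). A deposited subset holds the 1768 probe sets with p under 0.05 and at least 2-fold lower.

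Clusters were named from the exon-level probe sets whose IDs lie between a cluster ID and the next, with symbols updated through RefSeq. Cluster changes correlated across 17009 clusters with the median exon-level log2 ratio of their own interval (r = 0.928, against 0.0958 for the next cluster; clusters are not independent replicates). A single symbol was found for 24158 clusters, and 791 with several were left out, except that of Mfap4. The brightest cluster stood for each gene.

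The deposited log2 values were fitted with limma 3.58.1 (lmFit, eBayes) in R 4.3.3, two-sided, without filter or block, adjusted by Benjamini-Hochberg over 21166 genes, at 0.05. The code was tested on simulated data. Genes named are the 10 members, in each list the up to 4 called genes of lowest adjusted p, and the 5 genes most like Mfap5 and Fbn1 with a mean log2 value of at least 6. Loxl2, Loxl4, Krt18, Myh11, Des, Acta2 and Smtn were named after their values were seen. The members and lists were chosen with earlier results of these data known. Alternatives were filters on dim genes, quantile normalization, median centring, an eBayes trend, the replicate block, the mean of a gene's clusters, and each array left out.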

Additional observations from a re-analysis of the deposited data

How the results depend on the processing

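Mfap5 and Fbln5 fell under all 13 alternatives (limma adjusted p up to 0.00073 and 0.0011), with log2 fold changes from -1.51 to -1.40 and from -0.94 to -0.84. Fbn1 rose in 12 of 13, the exception being the mean of its clusters, and Lox passed in 5 of 13. Without 1 array the limma adjusted p of Fbn1 ran from 0.0091 to 0.049. The count of called genes among the 10 was 3 or 4 throughout, 3 in each fit without 1 array. Over all genes 1282 to 2062 were called without 1 array (1282 without control replicate 3, 1548 without mimic replicate 3) against 2481 with all, and 6 to 11 of the 62 further genes. The uncalled log2 fold changes near 0 changed sign without single arrays: Mfap2 ranged from -0.15 to 0.020, Mfap4 from -0.039 to 0.087, Emilin1 from -0.061 to 0.011 and Loxl1 from -0.14 to 0.052. The differences of changes within pairs kept their sign, from 1.25 to 1.52 for Mfap2 and Mfap5, from 0.37 to 0.65 for Fbn1 and Fbn2 and from 0.06 to 0.34 for Loxl1 and Lox. The samples share only a number. Deviations from the group mean had a correlation r of -0.054, -0.28 and 0.038 between arrays with the same replicate number. Between arrays with different numbers r was -0.30 to 0.33. With that number as a replicate block 3 of the 10 genes, 9 of the 62 further genes and 1730 of all genes were called. A filter at the median gene mean left out Eln, Fbn2 and Mfap4. Without detection calls, changes of genes near background cannot be bounded.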

Other observations

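The 10 lower probe sets of Fbn1 in the authors' deposited table were not spread evenly along the order of IDs, a split chosen after the values were seen. Of the first 58 probe sets 54 were higher, with a median ratio of 1.39 in the authors' deposited table, and of the last 10, from the 59th on, 4 were higher and 6 lower, with a median ratio of 0.955 and none (0 of 10) with p under 0.05. Where these probe sets lie in the gene was not analysed here.

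The copper transporter genes Atp7a (log2 fold change 0.40) and Slc31a1 (-0.29) moved in opposite directions, and so did Tgfb1 (0.52) and Tgfb3 (-0.28), and Fbln2 (0.37) and Fbln5 (-0.88). The differences within these pairs were not tested.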
